A study of Homo sapiens with 45 samples.

Results

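Messenger RNA of 32 genes for heterogeneous nuclear ribonucleoproteins (hnRNPs) and related RNA-binding proteins was followed in HCT116 cells depleted of HNRNPK. The genes were chosen by name, as the hnRNP family without its poly(C)-binding group, together with the polypyrimidine tract-binding (PTBP) proteins, the FET proteins and their close associates. All 32 names were found among the 28278 gene names in the table of 8 libraries and in the tables of 2 further control libraries. Of the 32 genes, 28 had enough reads for a test and 4 did not (HNRNPL, HNRNPR, TAF15 and HNRNPH2).

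HCT116 is an established human colon cancer line. Every group came from this line, plated onto siRNA with RNAiMAX at 25 nM and collected after 72 hours. The control group siNTC5 (4 libraries) and the group Scramble (2 libraries) both carried a nontargeting siRNA, and the group siHNRNPK (4 libraries) carried siRNA against HNRNPK. In siNTC5 and siHNRNPK alike, libraries 1 and 2 were prepared by the TruSeq stranded mRNA protocol and libraries 3 and 4 by the Ligation protocol, all from RNA purified on the Maxwell RSC, whereas Scramble replicates 5 and 6 were TruSeq libraries of RNA from the RNeasy kit, counted in tables of their own. The series also holds 35 chromatin immunoprecipitation (ChIP) and input samples, used here through 7 deposited lists of domains, of which none has replicates. The labels do not say that replicates were separate cultures, so p-values measure the spread between these libraries, which may be technical.

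hnRNPs coat newly made transcripts in the nucleus and steer splicing, polyadenylation, export and stability. Most carry RNA recognition motifs or KH domains and bind short, degenerate sequences, so paralogs often share targets. Many of them also limit their own or each other's mRNA through alternative exons that send the transcript to nonsense-mediated decay, a form of regulation well known for the PTBP and hnRNP L families. Colon carcinoma cells, as other dividing cells, express most of the family abundantly, whereas PTBP2 is best known from developing neurons.

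The 8 libraries held 12107280 to 23633851 counts and the Scramble libraries 59209169 and 55007171. The 32 genes took 1.2% to 1.3% of the counts in the 8 libraries and 0.871% and 0.894% in Scramble. HNRNPK itself stood at 934.4, 967.4, 822.2 and 813.8 CPM in siNTC5 1 to 4 and at 250.3, 222.6, 157.0 and 164.2 in siHNRNPK 1 to 4, which is -2.17 ± 0.06 as a log2 fold change (SE; edgeR quasi-likelihood test, adjusted p = 7.29e-15). CPM is the count of a gene relative to the size of its library, here scaled by TMM (trimmed mean of M values) unless stated otherwise. Of 7 colon epithelial markers, EPCAM, KRT8, KRT18, CDH1 and CDX2 were present, with CDX2 the lowest at 9.06 to 14.2 CPM, and VIL1 and CEACAM5 stayed under 0.5 CPM in all 8 libraries. Among 12 markers of other cell types, COL1A1 (43.5 to 122 CPM), CD68 (17.2 to 26.5), ELAVL3 (0.164 to 7.76), VWF (0.493 to 2.83) and RBFOX3 (0.659 to 1.81) passed 1 CPM in some library, while PTPRC, CD3E, PECAM1, CDH5, COL1A2, PDGFRB and ELAVL4 did not.

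The first comparison asked how the mRNA of these proteins stood after HNRNPK depletion. MATR3, PTBP2, HNRNPUL2, HNRNPAB, HNRNPA2B1, HNRNPM and the U family were higher in depleted cells, and RALY, HNRNPLL, HNRNPD and HNRNPH3 were lower. Of the 28 genes tested, 13 rose and 9 fell (edgeR quasi-likelihood test with library kit as a covariate, Benjamini-Hochberg adjusted p under 0.05 over 13933 genes). Of all genes tested, 71.5% were called, 35.5% as higher and 36.1% as lower, against 78.6%, 46.4% and 32.1% of the members. The changes were small. The median absolute log2 fold change was 0.251 over the 28 genes and 0.408 over all genes, and the median signed value was 0.02 against -0.004. Called changes of at least 0.5 on the log2 scale were found in 3 members (MATR3, PTBP2 and RALY), or 10.7%, against 39.9% of all genes, and no member reached 1, against 15.8% of all genes. All genes were not matched to the members by level. The SE reached 0.834 over all genes and 0.0788 over the members. The 4 libraries of each group did not overlap in CPM for 19 members (12 higher, 7 lower), or 67.9%, against 56.5% of all genes. In bulk RNA, fewer cells with a transcript and less of it per cell cannot be told apart.

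**Figure D1:**
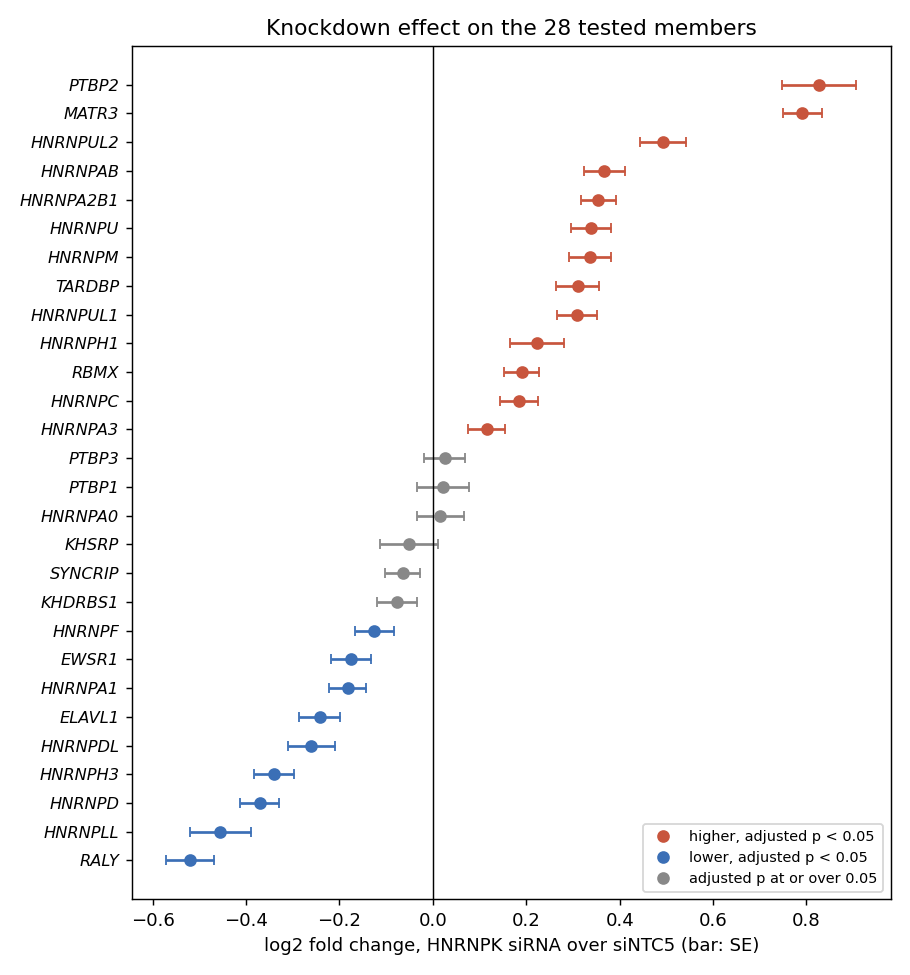
Log2 fold change of the 28 tested genes, HNRNPK siRNA over siNTC5 (x axis; points, with bars of 1 SE), one gene per row in order of the estimate. Red points are the 13 genes called higher, blue points the 9 called lower and grey points the 6 not called, and all lie between -0.52 and 0.83.

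MATR3 encodes matrin 3, a nuclear matrix protein with RNA recognition motifs and zinc fingers that works with PTBP1 in splicing. Its mRNA stood at 471.6, 459.2, 455.8 and 476.7 CPM in siNTC5 1 to 4 and at 762.8, 772.1, 848.5 and 845.6 CPM in siHNRNPK 1 to 4. The groups did not overlap, and depleted cells held 173% of the control mean (log2 fold change 0.79 ± 0.04 SE; adjusted p = 6.73e-12). SNHG4, a noncoding gene that overlaps MATR3 in RefSeq, changed by 0.20 ± 0.09 (SE; adjusted p = 0.0419), with overlapping groups, so its counts moved less than those of MATR3.

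RALY and HNRNPC are paralogs that bind uridine-rich RNA, and HNRNPC forms the tetramers of the core hnRNP particle. RALY was read at 127.4, 115.8, 137.8 and 135.5 CPM in siNTC5 1 to 4 and at 85.82, 78.80, 94.16 and 101.8 CPM in siHNRNPK 1 to 4. Every depleted library lay below every control, at 69.8% of the control mean (log2 fold change -0.52 ± 0.05 SE, adjusted p = 3.31e-08). HNRNPC moved the other way. It stood at 1013, 1023, 1053 and 1024 CPM in siNTC5 and at 1180, 1101, 1152 and 1240 CPM in siHNRNPK, again without overlap (log2 fold change 0.18 ± 0.04 SE, adjusted p = 0.000505).

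The 3 PTBP proteins bind pyrimidine-rich RNA and repress exons. PTBP1 is the form of most dividing cells, PTBP2 the neuronal form, whose mRNA PTBP1 is known to hold down by exon skipping, and PTBP3 a form known from blood cells. PTBP2 was low in all libraries, at 22.53, 27.77, 24.05 and 24.30 CPM in siNTC5 1 to 4 and 45.02, 50.65, 41.73 and 38.40 CPM in siHNRNPK 1 to 4. The groups were apart, and the depleted mean was 178% of the control mean (log2 fold change 0.83 ± 0.08 SE, adjusted p = 2.49e-08). PTBP1 stood at 415.9, 383.2, 403.5 and 398.2 CPM in siNTC5 and at 368.9, 354.2, 465.1 and 447.8 CPM in siHNRNPK. Both TruSeq depleted libraries lay below all controls and both Ligation depleted libraries above them, and the joint estimate was 0.02 ± 0.06 (SE; adjusted p = 0.744). PTBP3 stood at 234.2, 215.3, 199.8 and 210.1 CPM in siNTC5 and at 226.9, 221.1, 217.2 and 208.6 CPM in siHNRNPK, with overlapping groups (0.02 ± 0.04 SE, adjusted p = 0.62). Gene counts do not show which exons the PTBP transcripts carried.

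**Figure D2:**
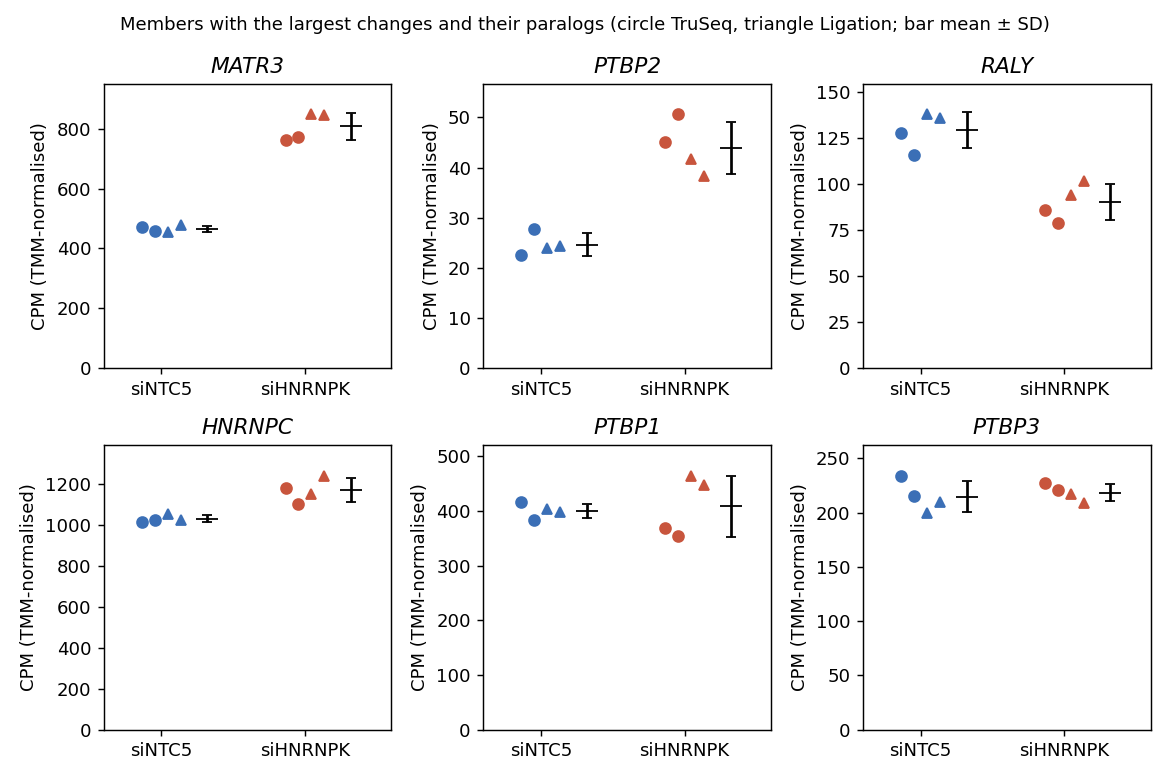
CPM of each library (y axis, from 0) for the 3 genes with the largest changes and their paralogs in siNTC5 (blue) and siHNRNPK (red). Circles are TruSeq and triangles Ligation libraries, and the black mark is the mean with its SD (n = 4). MATR3, PTBP2, RALY and HNRNPC have groups that do not overlap, and the PTBP1 depleted libraries split by kit.

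Promoters are printed for the gene with the largest rise that has an entry at its annotated start, for RALY with its paralog HNRNPC, for PTBP1, and for HNRNPA0, which lies in an H3K27me3 domain described further on. Each line is the 250 bases before the RefSeq start on the gene's strand (GRCh38.p14): MATR3 at chr5:139273851-139274100 (plus), RALY at chr20:33993661-33993910 (plus), HNRNPC at chr14:21269443-21269692 (minus), PTBP1 at chr19:797202-797451 (plus) and HNRNPA0 at chr5:137754364-137754613 (minus). Capitals mark the GC box letters GGGCGG, the CCAAT box letters CCAAT and the CT-element core CCCTCCCC, a cytosine-rich string of the kind hnRNP K is known to bind in single-stranded DNA, each searched on both strands.
MATR3: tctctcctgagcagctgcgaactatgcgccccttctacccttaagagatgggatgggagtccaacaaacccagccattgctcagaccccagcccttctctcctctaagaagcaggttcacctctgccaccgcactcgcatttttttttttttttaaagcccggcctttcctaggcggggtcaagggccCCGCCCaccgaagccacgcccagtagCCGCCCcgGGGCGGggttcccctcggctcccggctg
RALY: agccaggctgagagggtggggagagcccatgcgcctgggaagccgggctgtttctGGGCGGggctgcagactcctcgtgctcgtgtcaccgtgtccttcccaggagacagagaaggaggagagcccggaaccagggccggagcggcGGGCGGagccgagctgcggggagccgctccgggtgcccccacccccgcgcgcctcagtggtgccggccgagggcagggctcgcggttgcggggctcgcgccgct
HNRNPC: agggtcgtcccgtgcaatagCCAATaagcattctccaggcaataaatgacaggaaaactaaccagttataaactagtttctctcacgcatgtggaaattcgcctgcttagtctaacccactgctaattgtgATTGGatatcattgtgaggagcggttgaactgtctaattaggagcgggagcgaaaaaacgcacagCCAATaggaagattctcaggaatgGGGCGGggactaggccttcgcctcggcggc
PTBP1: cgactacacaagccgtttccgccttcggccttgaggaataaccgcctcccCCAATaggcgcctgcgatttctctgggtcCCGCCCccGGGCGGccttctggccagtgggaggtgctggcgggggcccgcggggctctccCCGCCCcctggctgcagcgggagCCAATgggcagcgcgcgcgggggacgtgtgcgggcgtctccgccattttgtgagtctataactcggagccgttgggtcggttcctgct
HNRNPA0: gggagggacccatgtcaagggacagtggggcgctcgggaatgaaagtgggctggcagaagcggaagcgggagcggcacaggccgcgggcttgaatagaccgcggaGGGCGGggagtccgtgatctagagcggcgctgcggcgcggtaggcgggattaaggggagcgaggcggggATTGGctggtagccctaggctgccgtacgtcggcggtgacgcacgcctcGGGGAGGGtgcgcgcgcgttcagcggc

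The MATR3 window held 3 GC boxes and no CCAAT box, and the RALY window 2 GC boxes and no CCAAT box. HNRNPC, the paralog that rose, had 1 GC box and 3 CCAAT boxes in a window of 48.4% G and C, against 74.4% for RALY. PTBP1 had 3 GC boxes and 2 CCAAT boxes. The CT-element core was in the HNRNPA0 window alone among these 5. Over 26 members with an entry at the gene's start, GGGCGG was in 20, CCAAT in 16 and CCCTCCCC in 4, while over all 35116 windows of the table the shares were 42.6%, 32% and 12.7%. Those windows take in every entry, also entries away from a gene's start, so they are not a like set and no enrichment is read. These are matches of letters, not measured binding.

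The A/B proteins are the most abundant hnRNPs and antagonise SR proteins at splice sites. HNRNPA2B1 stood at 1665, 1694, 1812 and 1767 CPM in siNTC5 and at 2109, 2193, 2315 and 2251 CPM in siHNRNPK, and rose by 0.35 ± 0.04 (log2, SE; adjusted p = 1.01e-07) with no overlap. HNRNPA1, its closest paralog here, was at 1791, 1779, 1901 and 1766 CPM in siNTC5 and fell to 1596, 1607, 1588 and 1585 CPM (log2 fold change -0.18 ± 0.04 SE, adjusted p = 0.000351). The depleted HNRNPA1 libraries were closer to each other than the controls. HNRNPA3 rose by 0.11 ± 0.04 (SE; adjusted p = 0.0126), from 704 ± 15 to 762 ± 19 CPM (SD, n = 4), but not with unscaled library totals (0.07, adjusted p = 0.0893), with no filter (0.08, adjusted p = 0.0906), within TruSeq alone, or without siHNRNPK 2 or 3. HNRNPA0, a kinase-regulated AU-rich element binder, was not called at 183 ± 11 and 185 ± 9 CPM (SD, n = 4; 0.02 ± 0.05 SE, adjusted p = 0.79).

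Near-identical copies of HNRNPA1 have rows of their own. HNRNPA1L2 held 177 to 326 counts in the 8 libraries and rose by 0.33 ± 0.10 (log2, SE; adjusted p = 0.00665), opposite to HNRNPA1. With the copies added to their genes, HNRNPA1 changed by -0.17, HNRNPA3 by 0.12 and RBMX by 0.21 on the log2 scale, an alternative chosen after the data were seen, and the direction and call of each stayed as they were. How the counting shared reads among copies is not given in the sources used here, so values of these genes are uncertain to that extent.

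The D group binds AU-rich elements and controls mRNA decay. HNRNPD (AUF1) stood at 392.7, 419.3, 361.1 and 345.7 CPM in siNTC5 and at 310.5, 308.7, 284.6 and 269.8 CPM in siHNRNPK, and fell by 0.37 on the log2 scale (SE 0.04, adjusted p = 1.75e-07). HNRNPDL fell by 0.26 (SE 0.05, adjusted p = 0.00016), from 282 ± 37 to 235 ± 13 CPM (SD, n = 4). HNRNPAB, the third of the group, rose without overlap from 250 ± 36 to 321 ± 23 CPM (SD, n = 4; 0.37 ± 0.04 SE, adjusted p = 6.32e-07). PHYKPL, which overlaps HNRNPAB in RefSeq, fell by 0.72 on the log2 scale (SE 0.09, adjusted p = 1.06e-06), so the 2 overlapping rows moved in opposite directions.

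HNRNPF, HNRNPH1, HNRNPH2 and HNRNPH3 bind runs of G through quasi-RNA recognition motifs. HNRNPH3 fell by 0.34 on the log2 scale (SE 0.04, adjusted p = 1.04e-06), from 213 ± 6 to 169 ± 5 CPM (SD, n = 4), with no overlap. HNRNPF fell by 0.12 (SE 0.04, adjusted p = 0.0120) with overlapping groups, and was not called with upper-quartile scaling (-0.09, adjusted p = 0.0578), without the kit term or within TruSeq alone. HNRNPH1 was at 67.59, 77.09, 44.44 and 44.61 CPM in siNTC5 and at 81.08, 81.70, 52.85 and 55.87 CPM in siHNRNPK. Each kit had depleted libraries above its controls, while the kits lay further apart than the treatments. In log2 units it rose by 0.22 ± 0.06 (SE; adjusted p = 0.00201), and the call was lost without the kit term (adjusted p = 0.374) and within TruSeq alone (0.17, adjusted p = 0.0774). HNRNPH1 stood far higher in Scramble, at 352.5 and 352.6 CPM. The reason for that gap was not tested, so its rise and its ratios to paralogs are uncertain to that extent.

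HNRNPLL, the hnRNP L paralog known from CD45 splicing in lymphocytes, fell without overlap from 41.0 ± 2.7 to 29.9 ± 3.2 CPM (SD, n = 4; log2 fold change -0.46 ± 0.07 SE, adjusted p = 4.83e-06). SYNCRIP (hnRNP Q), a translation regulator and paralog of HNRNPR, was at 575 ± 44 and 549 ± 34 CPM and was not called (-0.06 ± 0.04 SE, adjusted p = 0.128). HNRNPM, which binds GU-rich RNA, rose by 0.34 ± 0.05 (SE; adjusted p = 2.51e-06), from 286 ± 23 to 360 ± 7 CPM (SD, n = 4).

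All 3 genes of the U family rose without overlap. HNRNPU (scaffold attachment factor A), which ties RNA to chromatin, stood at 683.1, 745.0, 644.0 and 642.7 CPM in siNTC5 and at 880.7, 878.1, 872.7 and 798.4 CPM in siHNRNPK (0.34 ± 0.04 SE, adjusted p = 1.07e-06). HNRNPUL1 rose by 0.31 ± 0.04 (SE; adjusted p = 3.33e-06). HNRNPUL2, which like HNRNPUL1 is known from the response to DNA breaks, had the largest rise of the 3, from 61.4 ± 1.4 to 86.4 ± 2.3 CPM (SD, n = 4; 0.49 ± 0.05 SE, adjusted p = 4.72e-08). RBMX (hnRNP G), an X-linked splicing factor, rose from 358 ± 24 to 408 ± 20 CPM (SD, n = 4; 0.19 ± 0.04 SE, adjusted p = 0.000206).

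Of the FET proteins, which bind RNA and RNA polymerase II, EWSR1 fell by 0.17 on the log2 scale (SE 0.04, adjusted p = 0.00132), with overlapping groups. TARDBP encodes TDP-43, a UG-binding protein that limits its own mRNA. It rose from 269 ± 30 to 333 ± 15 CPM (SD, n = 4; 0.31 ± 0.05 SE, adjusted p = 7.62e-06), and MASP2, whose annotation overlaps TARDBP, rose by 1.15 ± 0.10 (SE; adjusted p = 1.07e-08) from 6.33 to 14.1 CPM. Whether reads were shared between them was not tested. ELAVL1 (HuR), a stabiliser of AU-rich mRNA, stood at 190.0, 193.2, 170.3 and 177.6 CPM in siNTC5 and at 154.6, 154.4, 153.8 and 155.0 CPM in siHNRNPK, and fell by 0.24 (log2; SE 0.04, adjusted p = 6.37e-05). The KH-domain proteins were not called: KHSRP, a decay-promoting protein, changed by -0.05 ± 0.06 (SE; adjusted p = 0.474), and KHDRBS1 (SAM68), a signal-responsive splicing regulator, by -0.08 ± 0.04 (SE; adjusted p = 0.108). A p over the threshold does not show that these 2 were equal between groups.

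Ratios of paralogs within a library do not depend on how libraries are scaled, so the balance within 16 pairs was compared. Of these, 4 could not be read because HNRNPH2, HNRNPL, HNRNPR or TAF15 had almost no counts. In 6 of the 12 others the 4 depleted libraries did not overlap the 4 controls. Groups did not overlap for 56.5% of all single genes tested, and no such share was computed over other pairs of genes. The log2 ratio of HNRNPC to RALY was 2.990, 3.144, 2.933 and 2.918 in siNTC5 and 3.781, 3.804, 3.612 and 3.607 in siHNRNPK, a difference of 0.70. HNRNPD to HNRNPAB turned from an excess of HNRNPD counts (0.542, 0.528, 0.717 and 0.651) to an excess of HNRNPAB counts (-0.143, -0.138, -0.101 and -0.140), a difference of -0.74. HNRNPA1 to HNRNPA2B1 went from 0.06 ± 0.04 to -0.48 ± 0.06 (SD, n = 4), a difference of -0.54. The ratio of counts is not a ratio of molecules, since the genes differ in length, but its shift is one of relative abundance.

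PTBP1 to PTBP2 shifted by -0.81, PTBP2 to PTBP3 by 0.80 and HNRNPUL1 to HNRNPUL2 by -0.18. Both PTBP2 shifts hold the same PTBP2 counts, so they restate its rise beside paralogs that were not called. Each of the 6 shifts had p = 0.0286 in a two-sided exact permutation test, the smallest p that 4 against 4 libraries allow, and adjusted p = 0.0572 over the 12 pairs, so none passed the adjustment. HNRNPH1 gained on HNRNPF (0.36) and on HNRNPH3 (0.57) with overlapping groups (adjusted p = 0.205 and 0.191 in the exact test), but within each kit both depleted libraries lay above both controls. The ratio of PTBP1 to PTBP3 shifted by -0.14 in TruSeq and by 0.13 in Ligation libraries, with depleted libraries apart from controls within each kit, and by -0.004 over both kits. Shifts of HNRNPU to HNRNPUL1 (0.03), HNRNPA3 to HNRNPA0 (0.10) and HNRNPD to HNRNPDL (-0.11) came with overlapping groups.

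**Figure D3:**
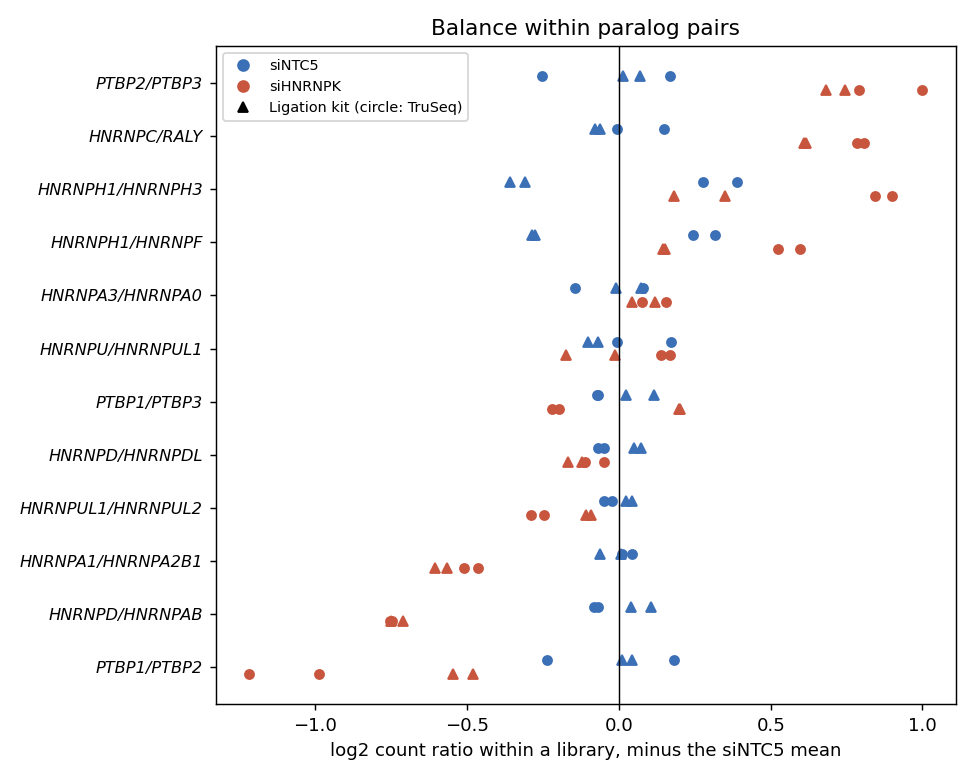
Log2 count ratio of 12 paralog pairs within each library, minus the mean of the siNTC5 libraries (x axis), with siNTC5 in blue and siHNRNPK in red, circles for TruSeq and triangles for Ligation libraries. Blue and red points are apart for 6 pairs, with the widest shift in PTBP1/PTBP2 (-0.81), and the 2 HNRNPH1 pairs separate within each kit but overlap between kits.

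Both library kits held 2 libraries of each group, which allowed the changes to be compared between them. All 22 called members had the same sign in both kits, as had 99.9% of all called genes present in both kits' fits. The call over the same 8 libraries largely fixes this. MATR3 changed by 0.73 in TruSeq and 0.85 in Ligation libraries, PTBP2 by 0.93 and 0.72, and RALY by -0.55 and -0.49. The interaction of kit and treatment was called for 0 of 28 members (edgeR, adjusted p under 0.05) and for 0.129% of all genes. At an unadjusted p under 0.05 it held for 6 members (21.4%), namely PTBP1, KHSRP, HNRNPDL, HNRNPM, HNRNPAB and HNRNPUL1, against 11.8% of all genes. PTBP1 had the largest term, at 0.33 ± 0.08 (SE; adjusted p = 0.1), with -0.14 in TruSeq and 0.18 in Ligation libraries, and KHSRP followed with -0.19 and 0.09 (adjusted p = 0.246). Leaving out siNTC5 1 gave calls for PTBP1 and HNRNPDL, and leaving out siNTC5 2 or using no filter gave calls for PTBP1 and KHSRP.

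**Figure D4:**
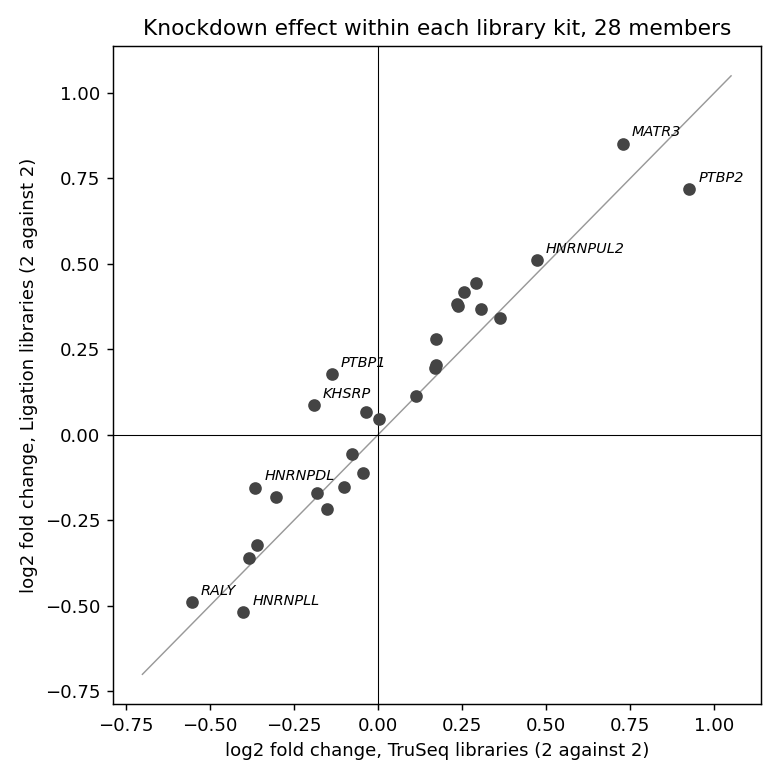
Log2 fold change of the 28 tested genes within TruSeq libraries (x axis) and within Ligation libraries (y axis), 2 depleted against 2 control libraries each; the grey line marks equal values. The called genes lie in the quadrants of equal sign, and PTBP1 (-0.14 and 0.18), KHSRP (-0.19 and 0.09) and HNRNPA0 (-0.03 and 0.07), not called in the joint fit, have opposite signs.

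TruSeq and Ligation libraries differed for 14 of 28 members (50%), against 28.5% of all genes. Kit went with replicate number in both groups, so an effect of kit cannot be told apart from other differences between the replicates. The same limit holds for the interaction of kit and treatment. In Ligation libraries 3 members were higher (10.7%, against 15.2% of all genes) and 11 lower (39.3%, against 13.2%). HNRNPH1 differed most, by -0.64 ± 0.06 (log2, SE; adjusted p = 2.17e-06). HNRNPAB followed at -0.27, and KHSRP, RALY and PTBP1 were the 3 that were higher, by 0.23, 0.21 and 0.17. The number of higher members fell to 1 without siHNRNPK 2 or without siHNRNPK 3.

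The Scramble libraries gave a further nontargeting control, with purification kit, count table and depth all differing from siNTC5 together. Of 29 members that could be read, 21 differed (72.4%; edgeR, threshold 0.05), against 68.6% of all genes. The 29 leave out HNRNPL, HNRNPR and TAF15, which had almost no counts in siNTC5, and keep HNRNPH2 with its few counts. The share of all genes does not leave out such genes, so the 2 sets are unlike to that extent. In Scramble 6 of the 29 members were higher (35.1% of all genes) and 15 lower (33.5%). HNRNPA1 held 4538 and 4460 counts in Scramble against 28534 to 42611 in siNTC5, although the Scramble libraries were deeper. Its log2 difference was -4.30 ± 0.07 (SE; adjusted p = 3.97e-14), while its copy HNRNPA1L2 held 3535 and 3444 counts in Scramble against 197 to 326 and differed by 2.46 ± 0.09 (SE; adjusted p = 1.38e-10). HNRNPH1 went the other way, with 18185 and 16729 counts against 667 to 1846 and a log2 difference of 2.28 ± 0.07 (SE; adjusted p = 1.33e-11). PTBP2 was lower in Scramble by 1.39 on the log2 scale (SE 0.11, adjusted p = 2.31e-07), and HNRNPA3, TARDBP and HNRNPDL had log2 differences of -0.99, -0.95 and -0.93.

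The 3 untested genes HNRNPL, HNRNPR and TAF15 showed the widest gap between the tables. HNRNPL held 0 counts in 7 of the 8 libraries and 3 in siHNRNPK 1, against 14041 and 14441 in Scramble. HNRNPR held 1 count in siNTC5 1 and in siHNRNPK 1 and 0 in the other 6, against 12335 and 10825. TAF15 held 0 in all 8, against 15996 and 14166. Such a pattern, at most 30 counts over the 8 libraries and at least 1000 in each Scramble library, was found for 3 of 32 members (9.38%) and for 0.815% of the 25527 names shared by the tables. The low counts were there in controls and depleted cells alike, and whether they come from the counting or from the RNA was not tested, so no level of these genes is read from the 8 libraries. HNRNPH2 had few counts in both, with 4 to 14 in the 8 libraries and 56 and 23 in Scramble.

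**Figure D5:**
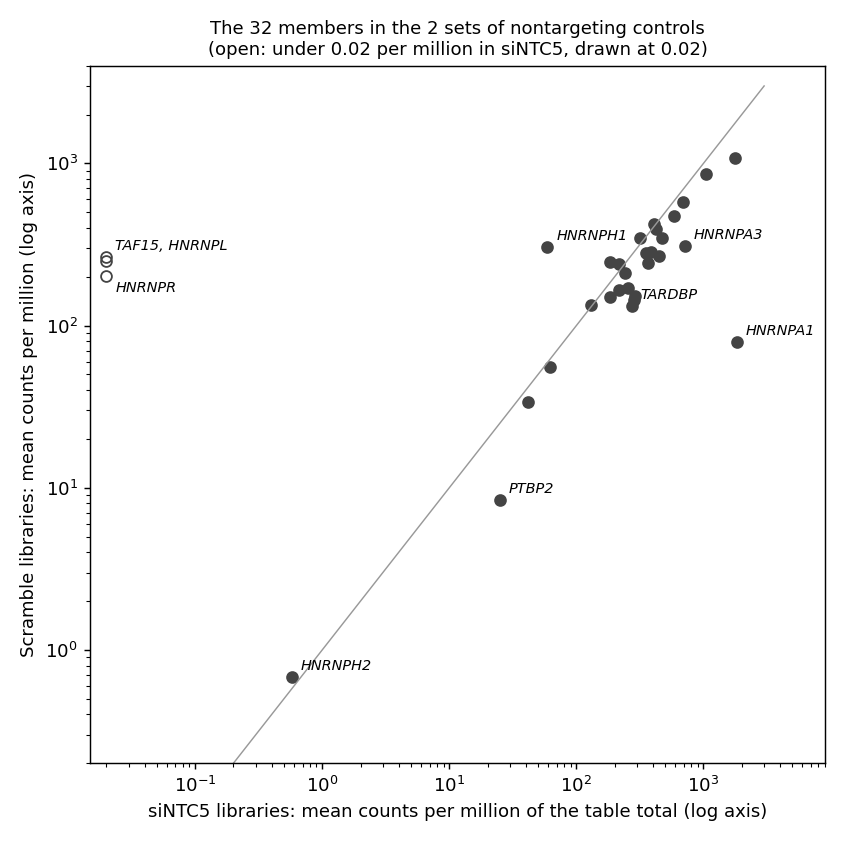
Mean CPM over the unscaled total of each library in siNTC5 (x axis, n = 4) and Scramble (y axis, n = 2), both on log axes, for the 32 genes; the line marks equal values and open points, drawn at 0.02, were below 0.02 in siNTC5. HNRNPL, HNRNPR and TAF15 are at the left edge, HNRNPA1 lies far below the line and HNRNPH1 above it.

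Against Scramble, which shares the siHNRNPK libraries with the first comparison, the 3 largest changes kept their direction: MATR3 at 0.90 ± 0.05, PTBP2 at 2.27 ± 0.09 and RALY at -0.95 ± 0.06 (log2, SE). Scramble differed from siNTC5 by -0.22, -1.39 and 0.35 for these genes, each opposite in sign to the change after depletion. For 4 called members the direction was the opposite one: HNRNPA1 at 4.10, HNRNPH1 at -2.15, HNRNPDL at 0.51 and EWSR1 at 0.35, each beside the control difference of the same gene given by the siNTC5 and Scramble libraries (-4.30, 2.28, -0.93 and -0.58).

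In the domain lists, read as GRCh38, 29 of the 32 genes had no base in any of the 7 lists of lamin B1, H3K9me2, H3K9me3 and H3K27me3 domains. HNRNPA0 (chr5:137745651-137754363) lay whole inside an H3K27me3 domain of 1575 kb with the same edges in control and depleted cells, chr5:136195001-137770000. The authors' scores of this domain were 2.15 in control and 2.34 in depleted cells, where the medians of the lists were 0.884 and 0.923. H3K27me3 is the mark of Polycomb repression, and HNRNPA0 was read at 171.6 to 197.5 CPM in all 8 libraries. HNRNPH2 (chrX:101408222-101414133), whose counts were near 0, had 69.9% of its body in an H3K27me3 domain in both lists. RPL36A-HNRNPH2, whose annotation overlaps HNRNPH2, held 0 to 6 counts in the 8 libraries. Whether reads over both annotations were counted was not tested, so the low counts are not read as low RNA. Of all tested genes with a position, 9.84% had at least 50% of their body in the control list and 8.41% in the depleted list. For lists in which no member reached 50% of its body, the share of all tested genes that did was 1.2% for H3K9me2, 2.94% and 5.9% for H3K9me3 in control and depleted cells, and 2.96% and 2.57% for lamin B1. HNRNPR had 36.1% of its body in an H3K9me3 domain of 65 kb listed in depleted cells alone, with a score of 0.523 against a list median of 0.709, and its RNA could not be read in the 8 libraries.

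Lists of other RNA-binding proteins were read beside the family, each against all genes tested. Of those, 71.5% were called, 35.5% as higher and 36.1% as lower, with a median of -0.004. The shares called in the lists, in the order given, were 81.5%, 73.1%, 73.3%, 90.5% and 80%. The lists were chosen with earlier results of these data known. Of 27 tested core U snRNP proteins and associated spliceosome factors such as U2AF2, 17 rose and 5 fell (median log2 fold change 0.27). U2AF2, which binds the polypyrimidine tract, rose most (0.69), followed by SF3A3 and SNRPB2, and EFTUD2, a GTPase of the U5 particle, fell most (-0.63), followed by SNRPA (-0.53). Of 26 other splicing regulators 14 rose and 5 fell (median 0.15), among them MBNL3 (0.87), MBNL2 (0.82) and RBM39 (0.64) above and KHDRBS3 (-0.76) and RBM10 (-0.68) below the controls.

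Of 15 partners of the family around SFPQ, NONO, NF90 and the DEAD-box helicases, 9 rose and 2 fell (median 0.24). SAFB (0.68), SAFB2 (0.64) and SFPQ (0.51), which is a PTB-associated factor, rose, and RAVER2, which binds PTBP1, fell (-0.48). RAVER1, another PTBP1 partner, was called lower (-0.19, adjusted p = 0.0415) with overlapping groups, at -0.40 in TruSeq and 0.02 in Ligation libraries (interaction adjusted p = 0.158). Of 21 tested proteins of mRNA stability and translation, 14 rose and 5 fell (median 0.21). IGF2BP3, an oncofetal mRNA stabiliser, fell from 230 ± 25 to 83.6 ± 4.6 CPM (SD, n = 4; -1.45 ± 0.06 SE, adjusted p = 6.50e-13), and its paralog IGF2BP2 fell too (-0.65), while RBM3, a cold-inducible protein, and PABPC1, the cytoplasmic poly(A)-binding protein, rose (0.62 and 0.52). Of 10 genes for hnRNP import and arginine methylation, 5 rose and 3 fell (median 0.13). PRMT5 (0.53) rose while WDR77, its partner in the methylosome, fell (-0.55). TNPO1, the importin of the HNRNPA1 nuclear signal, rose (0.39) while TNPO2 fell (-0.40) with overlapping groups.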

How the data were processed

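The authors deposited whole-number counts per gene symbol, as 1 table of 8 RNA libraries and 1 table for each Scramble library. The submitters' processing notes name STAR 2.7.1a, featureCounts and Subread 2.0.6 with hg38 for the 8 libraries, and STAR 2.7.1a, featureCounts and DESeq2 with hg19 and hg38 for Scramble; annotation, strand setting and treatment of multiply mapped reads are not given in the sources used here. The deposited domain lists carry a score for each domain, of unstated unit.

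Tests on counts used R 4.3.3, edgeR 4.0.16 and limma 3.58.1: filterByExpr, TMM, a quasi-likelihood fit of kit and treatment, Benjamini-Hochberg adjustment over all genes, threshold 0.05. Scramble was compared with siNTC5 on 25527 shared names with a kit term. Pair ratios used counts plus 0.5. A gene was placed in a domain at 50% of its RefSeq body. Positions and promoters came from RefSeq (GRCh38.p14); 29 of 32 members had a promoter entry. HNRNPA1, ELAVL1 and TAF15 had none, and the entries of 3 others are not at the start of the gene.

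All members are named, those past an adjusted p of 0.05 and 0.5 on the log2 scale, and their paralogs, in every library; from each other list up to 3 rises and 3 falls with a mean log2 CPM of at least 3. Members and lists were chosen with earlier results of these data known. Libraries with the same replicate number deviated together (r across genes 0.1004, 0.4246, 0.3365 and 0.2653). After removal of kit the values were -0.191, -0.156, -0.281 and -0.252. Removing kit and treatment by a fit pushes such values below 0 even for independent libraries, so they cannot show whether a pairing remained. The labels tie the kit to the replicate numbers, so a shared deviation cannot be told apart from the kit. A replicate block was run as an alternative. Alternatives were DESeq2 1.42.0, its size factors, upper-quartile and unscaled totals, filters, no kit term, each kit, each library left out, Scramble controls and fold limits. The fit was tested on simulated data. Python 3.11.15 was used for the rest.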

Additional observations from a re-analysis of the deposited data

Results flagged for a closer look

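Of 58 groups of 4 libraries examined over the members and HNRNPK, 1 held a library apart from the other 3, where chance gives about 1 in 20. HNRNPU in siHNRNPK 4 stood at 798 CPM, while the other depleted libraries lay between 873 and 881 CPM. It was still above all 4 controls.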

How the results depend on the processing

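Of 532 alternative values of the 28 members' fold changes without Scramble libraries, 514 kept the call or its absence. A further 10 lost the call (HNRNPA3, HNRNPF and HNRNPH1), 8 gained one (SYNCRIP, KHDRBS1, KHSRP and PTBP1) and 0 reversed. A change of sign counted as a reversal only where the main or the alternative value was called. The 514 therefore include sign changes of uncalled members, such as PTBP1 (-0.14) and HNRNPA0 (-0.03) within TruSeq. Leaving out each library gave 12 to 13 higher and 9 to 10 lower members, and the replicate block changed no member's call (13 higher, 9 lower). With Scramble added as controls 10 rose and 5 fell, and HNRNPA1 (0.37) and HNRNPH1 (-0.67) reversed; with Scramble in place of siNTC5 15 of 32 rose and 16 fell (15 and 12 without HNRNPL, HNRNPR, TAF15 and HNRNPH2), and HNRNPA0 (-0.69), HNRNPA1 (4.10), HNRNPDL (0.51), HNRNPH1 (-2.15), EWSR1 (0.35), PTBP1 (-0.47) and PTBP3 (-0.35) reversed. The cause was not tested. A minimum log2 change of 0.5 left 2 higher and 1 lower, and of 1 left 0 and 0. Interaction calls were 2 with no filter and 0 to 2 with a library left out, and members higher in Ligation libraries 1 to 4. Counting any overlap put 1 member in the H3K9me3 list of depleted cells. HNRNPL, HNRNPR, TAF15 and HNRNPH2 hold too few counts in the 8 libraries for a test.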
